A study of Homo sapiens with 5 samples.

Results

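The genes described here are 10 genes of the smooth-muscle-type contractile apparatus, chosen by name: TAGLN, ACTA2, ACTG2, CNN1, CNN2, CALD1, TPM1, TPM2, MYL9 and MYLK. They are 10 of the 37181 genes or assembled loci in the deposited table of FPKM values, which are read fragments scaled by gene length and library size. A symbol with several entries was represented by its entry with the highest mean. Of the 10 genes this applied to MYLK only, with 2 entries, and it also applied to some of the other genes named below. HCC827 is a human lung adenocarcinoma cell line, and both groups carry the EGFR exon 19 deletion. HCC827/GR is a gefitinib-resistant line raised from HCC827 by stepwise dosing with gefitinib for more than 6 months, and the parental HCC827 cells are gefitinib sensitive. RNA sequencing of 3 HCC827/GR libraries (replicates 1, 2 and 3) was compared with 2 libraries of parental HCC827 cells (replicates 2 and 3), to find what differed in expression once resistance was acquired. HCC827/GR is a single derived line, and nothing states whether its libraries came from separate cultures, so p-values measure only the spread between these libraries.

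Smooth-muscle-type contraction is built on actin filaments and myosin II. Calcium-bound calmodulin activates myosin light chain kinase (MYLK), which phosphorylates the regulatory light chain (MYL9) and lets the myosin heads pull on actin. On the thin filament, tropomyosins (TPM1, TPM2), caldesmon (CALD1), calponins (CNN1, CNN2) and transgelin (TAGLN, or SM22) bind actin and tune or stabilise it, and ACTA2 and ACTG2 encode the smooth muscle actins. Serum response factor (SRF) with myocardin-related cofactors drives many of these genes through a DNA element called the CArG box, and several of them are widely used as markers of myofibroblasts and of epithelial-mesenchymal transition.

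The labels describe single-end small-RNA libraries, whereas the study's methods describe paired-end mRNA libraries from RNA depleted of ribosomal RNA. Which of them gave these values is not settled, and FPKM was read here as the level of each gene's mRNA. FPKM values carry no read counts, so depth and counting error are unknown, and an exact 0 was read only as listed at 0. The libraries summed to 138854 to 167722 FPKM, with 8896 to 9803 entries listed at 0 in each. Fewer cells of a type and less RNA per cell cannot be told apart in such bulk samples. The 7 epithelial markers with an entry, led by KRT18, KRT8, KRT19 and EPCAM, were detected in both groups but summed to less in HCC827/GR (443 to 574 FPKM) than in HCC827 (1068 to 1186 FPKM). Of 6 further markers of differentiated smooth muscle, 4 had an entry, and their sum was 0.297 to 0.375 FPKM in HCC827/GR and 0.256 to 0.508 FPKM in HCC827, with DES listed at 0 in both HCC827 libraries. The 8 fibroblast markers summed to 2.72 to 3.07 FPKM in HCC827/GR and 3.34 to 3.45 FPKM in HCC827, and the 6 striated muscle markers with an entry to 4.11 to 5.00 and 6.15 to 6.24 FPKM. Neither sum was higher in HCC827/GR, but the fibroblast sum was mostly PDGFRA and the striated muscle sum almost wholly TNNT1. PDGFRB of the fibroblast list went the other way, with 0.278, 0.184 and 0.184 FPKM in HCC827/GR and 0.00777 and 0.0147 FPKM in HCC827, and its part in the results below was not tested. For 5 blood and endothelial markers the sums were 0.0373 to 0.0937 and 3.52 to 4.48 FPKM, and the latter was almost wholly PECAM1. PECAM1 has 10 entries, of which only that with the highest mean was counted, and this entry was listed at 0 in every HCC827/GR library.

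MYL9, MYLK, TAGLN and CALD1 rose in HCC827/GR cells, by between 1.51 and 6.75 times in mean FPKM, while the smooth muscle actins ACTA2 and ACTG2 stayed below 0.5 FPKM in every library. Of the 10 genes, 8 had a mean of at least 0.5 FPKM and were tested. The test was limma on log2(FPKM + 1) with Benjamini-Hochberg adjustment over the 16189 entries that reached this mean, and called means an adjusted p under 0.05. Among the 8, 4 were called higher and 0 lower, against 5.26% called higher and 5.71% called lower of all entries tested. The genes were chosen with earlier results of these data known, so such shares describe them and are no test of an independent list. At an unadjusted p under 0.05, TPM1 and CNN1 were also higher and CNN2 was lower, which made 6 higher and 1 lower of the 8, against 13.4% and 13.8% of all entries. With 1 library left out, 0 to 1 of the contractile genes were called higher. The median log2 fold change of the 8 was 0.76, and that of all entries tested was 0.0014. By fold of FPKM + 1, MYL9 and TPM1 reached at least 2 with an unadjusted p under 0.05 from limma, against 2.96% of all entries. None of the 8 fell to 0.5 or below, against 3.97%. TAGLN and CNN1 stayed under 2 on this scale, although their mean FPKM rose 3.42 and 20.0 times. The groups did not overlap for 6 of the 8 with HCC827/GR higher (22.8% of all entries) and for 1 with HCC827/GR lower (23.4%). TAGLN and CNN1 reached the mean of 0.5 FPKM only through HCC827/GR, so they could be tested only because they were high there. The counts and the median of the 8 include both genes.

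**Figure D1:**
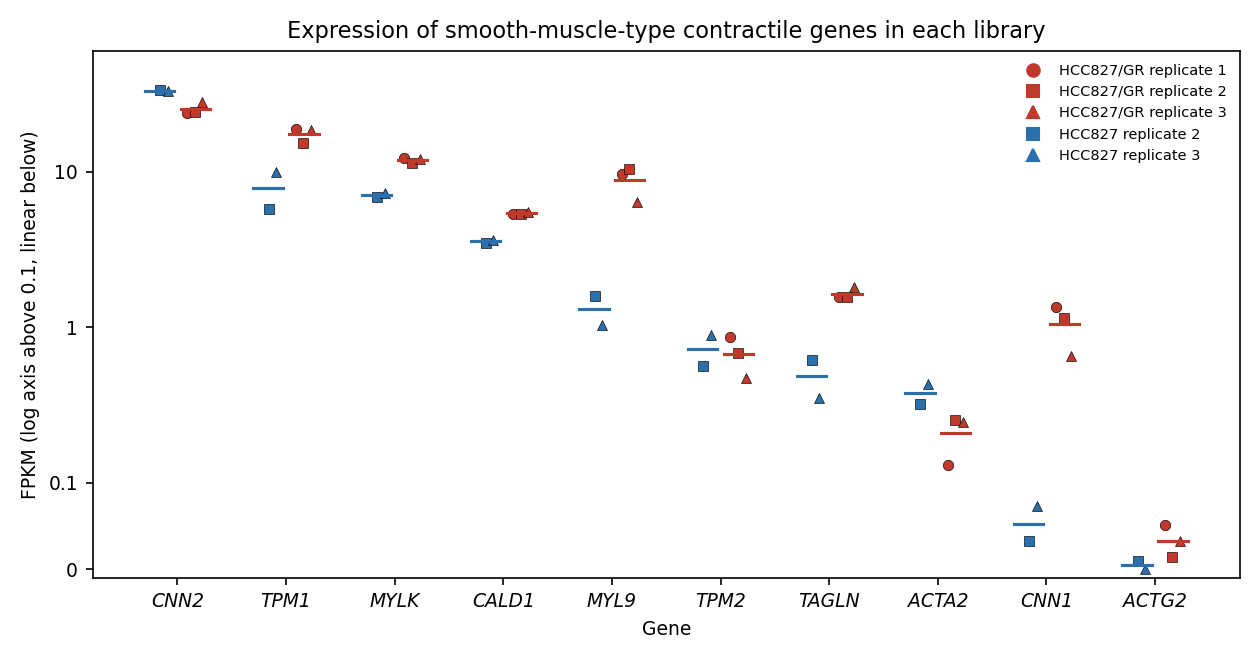
FPKM of each gene in each library (points, shape by replicate) with the group means (lines), ordered by the HCC827 mean, on an axis that is logarithmic above 0.1 and linear below. CNN2 is the most abundant gene in both groups, MYL9 and CNN1 stand furthest apart by ratio, and ACTA2 and ACTG2 stay below 0.5 FPKM in every library.

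ACTA2, the actin of vascular smooth muscle and myofibroblasts, was measured at 0.131, 0.254 and 0.246 FPKM in HCC827/GR (replicates 1, 2 and 3, the order used throughout) and at 0.320 and 0.434 FPKM in HCC827 replicates 2 and 3. The HCC827/GR values all lay under the HCC827 values, and the two-sided exact permutation p was 0.1, which no comparison of 3 with 2 libraries can undercut. ACTG2, the enteric smooth muscle actin, had 0.0509, 0.0145 and 0.0324 FPKM in HCC827/GR and 0.00978 FPKM in HCC827 replicate 2, and was listed at 0 in HCC827 replicate 3. Both genes stayed under the filter. Without the filter their log2 fold changes were -0.19 (adjusted p = 0.386 from limma) for ACTA2 and 0.04 (adjusted p = 0.377) for ACTG2. By contrast, the cytoplasmic actins ACTB and ACTG1, which form the actin of non-muscle cells, had means of 1002 and 416 FPKM in HCC827/GR and 874 and 371 FPKM in HCC827 and did not pass the test (adjusted p = 0.650 and 0.516). ACTA2 and ACTG2 together made up 0.0129%, 0.0215% and 0.0174% of the FPKM of 6 actin genes in HCC827/GR and 0.0290% and 0.0320% in HCC827. Actin coding sequences are similar, so some reads could have been shared between these genes, and exons of ACTA2 overlap exons of FAS and ACTA2-AS1 on the other strand.

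The CArG boxes found before these genes are shown because the element is the known binding site of SRF. RefSeq sequence of GRCh38.p14 was at hand for 8 of the 10 genes, namely those other than TAGLN and MYL9, and the 250 bases before each start held in that table were searched for the exact CArG box, which reads the same on both strands. The table held 13 windows for the 8 genes, fewer than their transcripts, and the only window of MYLK was that of a short transcript, so the starts of its kinase forms were not searched. The match is in capitals, with 10 bases on each side, on the strand of the gene.
ACTG2 first box: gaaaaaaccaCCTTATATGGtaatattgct
ACTG2 second box: cgtcagctggCCTTTTTAGGgactttgttt
MYLK box: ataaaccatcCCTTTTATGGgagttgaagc
CNN2 box: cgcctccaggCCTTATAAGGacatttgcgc
The ACTG2 stretches lie at chr2:73892888-73892917 and chr2:73892925-73892954 on the plus strand, with the boxes 110 to 101 and 73 to 64 bases before the RefSeq start. Both are inside the gene as GENCODE annotates it, and the second overlaps 2 annotated exons of ACTG2. The MYLK stretch, chr3:123620623-123620652 on the minus strand, also lies inside the gene, 94 to 85 bases before the start of that short transcript near its 3′ end, the position from which the small protein telokin is known to be made, and it overlaps 3 annotated exons. The CNN2 stretch, chr19:1026509-1026538 on the plus strand, lies outside the annotated gene, 89 to 80 bases before the start. An exact box was present for 3 of the 8 genes, or 37.5%, and for 394 of 27305 gene symbols in the table, or 1.44%. By window these were 3 of 13, or 23.1%, and 407 of 35116, or 1.16%. Many of these genes are known to be driven by SRF, so these shares are background and not a result of these data. No exact box was found in the windows of ACTA2, CNN1, CALD1, TPM1 or TPM2, which says only that these letters were not in those windows. Of the genes with a box, MYLK rose, CNN2 was lower without passing the test, and ACTG2 was near 0 and under the filter. The MYLK entry joins its transcripts, so the short transcript with the box was not measured by itself. Any part of the boxes in these values was not tested.

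TAGLN, an actin-bundling protein of the calponin family, had 1.57, 1.56 and 1.81 FPKM in HCC827/GR and 0.615 and 0.350 FPKM in HCC827. All HCC827/GR values were above both HCC827 values. Its mean was 1.65 ± 0.143 FPKM (SD, n = 3) against 0.483 ± 0.188 FPKM (SD, n = 2), a ratio of 3.42, or 0.84 ± 0.14 (SE) as a log2 fold change, with an adjusted p of 0.0278. The call was lost with any of the 5 libraries left out (adjusted p between 0.0705 and 0.0959). Exons of TAGLN (chromosome 11 of GRCh38, 117199321 to 117204782, plus strand) overlap those of PCSK7 on the other strand, and PCSK7 itself had a log2 fold change of -0.03 (adjusted p = 0.914). The more widely expressed TAGLN2 was far above TAGLN in both groups, with 134, 58.2 and 51.8 FPKM in HCC827/GR and 128 and 158 FPKM in HCC827. The TAGLN2 values overlapped between the groups, with HCC827/GR replicate 1 among the HCC827 values (log2 fold change -0.93, adjusted p = 0.270).

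CNN1, the calponin typical of differentiated smooth muscle, had 1.35, 1.16 and 0.656 FPKM in HCC827/GR and 0.0323 and 0.0728 FPKM in HCC827. The groups did not overlap, and the ratio of the means was 20.0, resting on HCC827 values under 0.1 FPKM. The ratio was 32.6 without HCC827 replicate 3 and 14.5 without HCC827 replicate 2. On the log2 scale it differed by 0.95 ± 0.20 (SE), and its adjusted p of 0.0509 lay just above the threshold and ran from 0.0313 to 0.203 over the alternatives. CNN2, the calponin of many non-muscle and epithelial cells, went the other way, with 23.8, 24.2 and 28.3 FPKM in HCC827/GR and 33.4 and 33.1 FPKM in HCC827. Every HCC827/GR value was below the HCC827 values, with a log2 fold change of -0.38 (95% interval -0.67 to -0.09, adjusted p = 0.111 from limma). GENCODE names 11 pseudogenes of CNN2, of which 3 have entries in the table, and the locus AC011558.1 overlaps CNN2 exons on the other strand. AC011558.1 had a log2 fold change of -0.35 (adjusted p = 0.180), in the same direction as CNN2, and its part in the CNN2 values was not tested. CNN3, the calponin found mostly in non-muscle cells, rose from 54.2 and 56.5 FPKM in HCC827 to 85.2, 78.3 and 77.7 FPKM in HCC827/GR (log2 fold change 0.53, adjusted p = 0.0349), a call lost with any of the 5 libraries left out (adjusted p between 0.0782 and 0.132).

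TPM1, a tropomyosin that lies along the actin filament, had 18.8, 15.3 and 18.4 FPKM in HCC827/GR and 5.79 and 9.90 FPKM in HCC827. The groups were apart, but the HCC827 libraries also differed from each other. Its means were 17.5 ± 1.94 FPKM (SD, n = 3) and 7.85 ± 2.91 FPKM (SD, n = 2), a ratio of 2.23, or 1.10 ± 0.24 (SE) as a log2 fold change, with an adjusted p of 0.0531. Over the alternatives the adjusted p ran from 0.0491 to 0.409. The antisense locus AC079328.2 overlaps TPM1 exons on the other strand. AC079328.2 was higher in HCC827/GR, with 9.45, 8.17 and 7.80 FPKM against 3.99 and 4.38 FPKM in HCC827 (log2 fold change 0.87, adjusted p = 0.0178 from limma). Its adjusted p ran from 0.0159 to 0.174 over the alternatives, so this call was not stable either. No source used here states that strand was kept, so reads of TPM1 and AC079328.2 cannot be told apart. TPM2, the tropomyosin of smooth and slow muscle, had 0.871, 0.686 and 0.471 FPKM in HCC827/GR and 0.562 and 0.898 FPKM in HCC827. The TPM2 values overlapped, with a log2 fold change of -0.05 (95% interval -0.51 to 0.41, adjusted p = 0.899).

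CALD1, which encodes caldesmon, an actin-binding inhibitor of the myosin ATPase, rose with little spread between libraries. It had 5.37, 5.35 and 5.50 FPKM in HCC827/GR and 3.50 and 3.65 FPKM in HCC827, and the groups did not overlap. The ratio of the means was 1.51 and the log2 fold change 0.49 ± 0.083 (SE), with an adjusted p of 0.0319. With any library left out the adjusted p was between 0.0825 and 0.118. The gene lies on chromosome 7, from 134744252 to 134970728, and its entry joins 23 transcripts, so the long smooth muscle form and the shorter non-muscle form of caldesmon were not separated.

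MYL9, the regulatory light chain of smooth muscle and non-muscle myosin II, had the largest log2 fold change of the 8 tested, although CNN1 exceeded it with a pseudocount of 0.1 (2.88 against 2.66). It had 9.63, 10.5 and 6.37 FPKM in HCC827/GR and 1.58 and 1.03 FPKM in HCC827. The lowest HCC827/GR value was well above the highest HCC827 value. The means were 8.83 ± 2.17 FPKM (SD, n = 3) and 1.31 ± 0.390 FPKM (SD, n = 2), a ratio of 6.75, or 2.08 ± 0.24 (SE) as a log2 fold change, with an adjusted p of 0.0130. The adjusted p was above 0.05 without HCC827/GR replicate 1 (0.0573) and without HCC827 replicate 2 (0.0708) or 3 (0.0804), while the log2 fold change stayed between 1.90 and 2.66 over all alternatives. MYL9 lies on chromosome 20, from 36541484 to 36551447.

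MYLK, the kinase that phosphorylates this light chain, had 12.3, 11.3 and 12.1 FPKM in HCC827/GR and 6.90 and 7.27 FPKM in HCC827. The values were close within each group and apart between the groups. The ratio of the means was 1.68 and the log2 fold change 0.68 ± 0.089 (SE), with an adjusted p of 0.0175. With any library left out the adjusted p was between 0.0553 and 0.0851. The entry joins 25 transcripts of the gene (chromosome 3, 123610049 to 123884331, minus strand), so the long kinase, the short kinase and telokin were not separated. Exons of MYLK overlap those of MYLK-AS1 and MYLK-AS2 on the other strand. MYLK-AS1 had a log2 fold change of -0.09 (adjusted p = 0.841). MYLK-AS2, under the filter and so not tested by limma, had 0.415 ± 0.0760 FPKM (SD, n = 3) in HCC827/GR and 0.241 ± 0.0547 FPKM (SD, n = 2) in HCC827, without overlap and in the direction of MYLK (exact permutation p = 0.1). Its level was far below that of MYLK, and its part in the MYLK values was not tested.

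**Figure D2:**
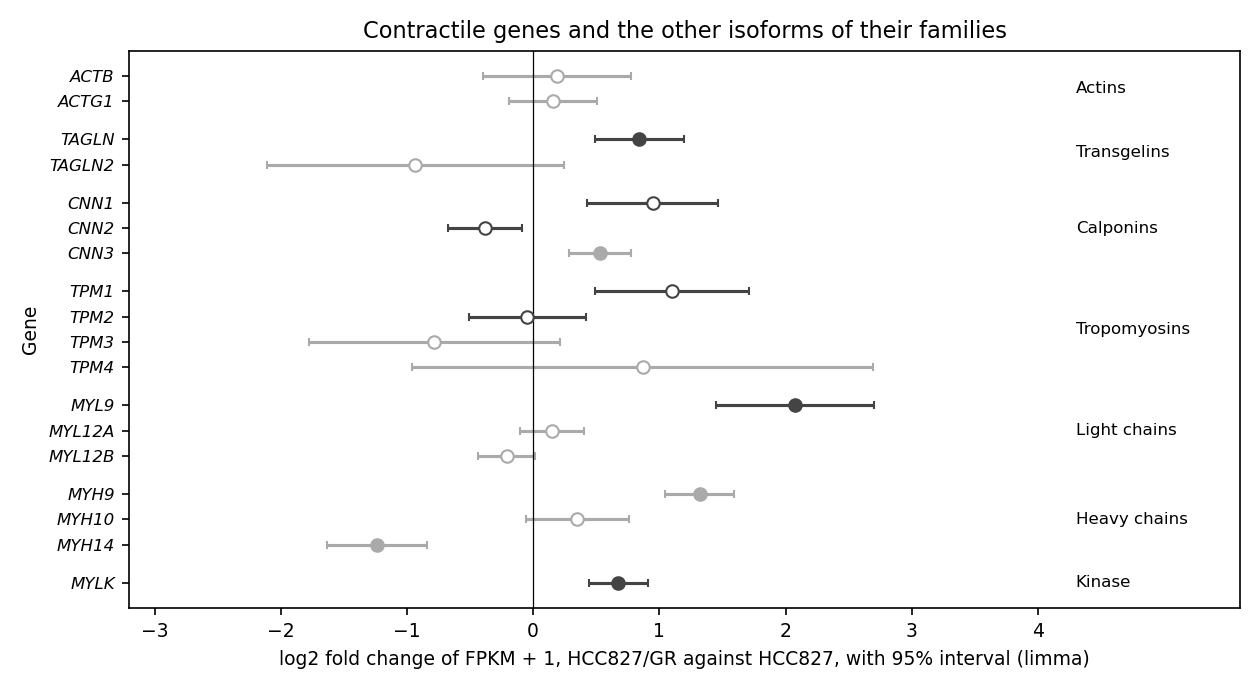
Difference in log2(FPKM + 1) between HCC827/GR and HCC827 (x axis) with 95% intervals from limma, for the contractile genes (dark) and other isoforms of their families (grey) that were tested, grouped by family. Filled points have an adjusted p under 0.05, which MYL9, MYLK, TAGLN, CNN3 and MYH9 reach above 0 and MYH14 below 0. CALD1, which has no family in the plot, and the essential light chain MYL6 were tested but are not drawn.

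The heavy chains that these light chains serve were examined as part of a list of 20 related isoforms. Of the 20, 12 were tested, and 2 were called higher and 1 lower, against 5.26% and 5.71% of all entries tested. The median log2 fold change of the 12 was 0.17. MYH9, the heavy chain of non-muscle myosin IIA, had 141, 152 and 138 FPKM in HCC827/GR and 53.6 and 60.3 FPKM in HCC827. All HCC827/GR values lay above the HCC827 values (log2 fold change 1.32 ± 0.11, SE, adjusted p = 0.00630). MYH14, the heavy chain of non-muscle myosin IIC, fell from 3.64 and 2.56 FPKM in HCC827 to 0.808, 0.715 and 0.648 FPKM in HCC827/GR (log2 fold change -1.24, adjusted p = 0.0146). The MYH14 call was lost without any 1 of the HCC827/GR libraries or without HCC827 replicate 2 (adjusted p between 0.0522 and 0.0642). MYH10, of non-muscle myosin IIB, had 21.5, 17.7 and 24.2 FPKM against 17.0 and 15.5 FPKM (adjusted p = 0.240). MYH11, the smooth muscle heavy chain, was between 0.107 and 0.222 FPKM in every library and overlapped between the groups. The essential light chain MYL6 had means of 18.5 and 16.2 FPKM in HCC827/GR and HCC827 and did not pass the test (adjusted p = 0.262).

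Since FPKM values are per length, the share of each gene in the summed FPKM of its protein family was compared, with an exact permutation test over the 5 libraries. MYL9 made up 4.45%, 4.67% and 2.96% of the 3 regulatory light chains in HCC827/GR and 0.693% and 0.456% in HCC827, and MYL12A and MYL12B made up the rest. The MYL9 share did not overlap between the groups, while the family sum was 219 ± 5.00 FPKM (SD, n = 3) in HCC827/GR and 228 ± 1.55 FPKM (SD, n = 2) in HCC827. TPM1 made up 24.0%, 30.4% and 28.6% of the 4 tropomyosins in HCC827/GR and 12.7% and 13.6% in HCC827, a difference of 14.5 percentage points. In this share the HCC827 libraries were close, although their TPM1 levels and family sums were not. The sum was 45.5 and 72.9 FPKM in HCC827 and 78.5, 50.2 and 64.5 FPKM in HCC827/GR. TPM4 had 5.88 and 32.5 FPKM in HCC827 and 28.7, 20.8 and 31.7 FPKM in HCC827/GR. For TPM3 the values were 33.2 and 29.6 FPKM in HCC827 and 30.1, 13.4 and 13.9 FPKM in HCC827/GR. CNN2 made up 21.5%, 23.3% and 26.5% of the 3 calponins in HCC827/GR and 38.2% and 36.9% in HCC827, a difference of -13.7 points. CNN1 took 1.22%, 1.12% and 0.615% in HCC827/GR and 0.0368% and 0.0812% in HCC827. For TAGLN the share of 3 transgelins was 1.16%, 2.61% and 3.38% in HCC827/GR and 0.478% and 0.220% in HCC827. The exact p was 0.1 for MYL9, TPM1, CNN2 and CNN1, the smallest possible, and 0.2 for TAGLN, whose HCC827/GR replicate 1 held the highest TAGLN2 level of its group. TPM2 took 1.07 ± 0.320% (SD, n = 3) of the tropomyosins in HCC827/GR and 1.23 ± 0.0018% (SD, n = 2) in HCC827, which overlapped (exact permutation p = 0.7).

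**Figure D3:**
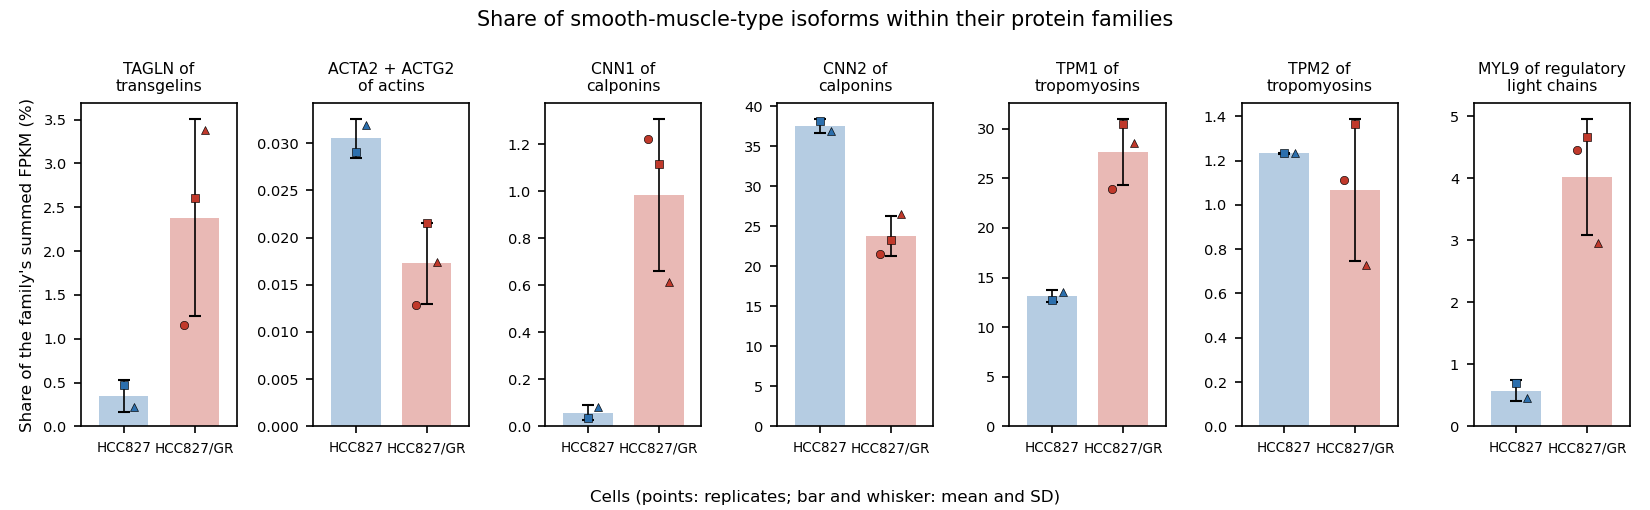
Share of each gene in the summed FPKM of its protein family (%), with points for replicates and bars and whiskers for the mean and SD of 2 HCC827 and 3 HCC827/GR libraries, each panel on its own scale from 0. TPM1, MYL9, CNN1 and TAGLN take larger shares in HCC827/GR, CNN2 and the 2 smooth muscle actins smaller ones, and TPM2 overlaps.

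Ordered by level, CNN2 came first in both groups, followed by TPM1 and MYLK, whose values overlapped in HCC827 but not in HCC827/GR. MYL9 lay below CALD1 in both HCC827 libraries and above it in all 3 HCC827/GR libraries. TAGLN overlapped with TPM2 and ACTA2 in HCC827 and lay above both in every HCC827/GR library, and CNN1 overlapped with TPM2 in HCC827/GR. The 10 genes summed to 73.8, 70.3 and 73.9 FPKM in HCC827/GR and 52.7 and 56.7 FPKM in HCC827. CNN2 made up 60.9 ± 3.58% (SD, n = 2) of this sum in HCC827 and 34.9 ± 3.08% (SD, n = 3) in HCC827/GR.

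Among 11 genes for SRF, its cofactors and close partners, 10 were tested, and limma called 0 higher and 1 lower. Of all entries tested, 5.26% were called higher and 5.71% lower. The median log2 fold change of the 10 was 0.11. SRF itself had 8.97, 4.01 and 8.58 FPKM in HCC827/GR and 7.73 and 5.99 FPKM in HCC827, and the groups overlapped (log2 fold change 0.0014, adjusted p = 0.998). The cofactor MRTFA, listed under its older symbol MKL1, had 4.33, 2.70 and 3.74 FPKM against 1.68 and 2.23 FPKM, without overlap and without passing the test (log2 fold change 0.63, adjusted p = 0.125). MYOCD had no entry under that symbol and was not analysed here. ELK3, a ternary complex factor that binds beside SRF, was the gene called lower, with 12.6, 9.81 and 11.6 FPKM in HCC827/GR and 25.3 and 23.4 FPKM in HCC827 (log2 fold change -1.04, adjusted p = 0.0157). The ELK3 call was lost without HCC827/GR replicate 1 or 3 or either HCC827 library (adjusted p between 0.0513 and 0.0952). FHL2, a LIM-domain partner of SRF, and ELK4, a further ternary complex factor, had log2 fold changes of 0.18 and 0.86 and did not pass (adjusted p = 0.702 and 0.292). At an unadjusted p under 0.05, 2 genes of this list, MRTFA and ELK1, were higher and 2, ELK3 and FHL1, were lower. The shares of all entries were 13.4% and 13.8%. FHL1, a LIM-domain protein of muscle, had 3.94, 1.69 and 3.39 FPKM in HCC827/GR and 6.47 and 6.06 FPKM in HCC827, without overlap and without passing the adjusted test (log2 fold change -0.91, adjusted p = 0.128).

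Of 18 genes that control myosin phosphorylation and actin turnover (small GTPases, ROCK, calmodulin, LIM kinase, cofilin and myosin phosphatase), 16 were tested. Of these, 0 were called higher and 1 lower by limma, against 5.26% and 5.71% of all entries tested. The median log2 fold change of the 16 was 0.07. PPP1R12A, the myosin-binding subunit of the phosphatase that opposes MYLK, fell from 6.93 and 8.72 FPKM in HCC827 to 4.74, 4.35 and 4.78 FPKM in HCC827/GR (log2 fold change -0.64, adjusted p = 0.0409). The PPP1R12A call was lost with any library left out (adjusted p between 0.0698 and 0.117). RHOA had 143, 134 and 139 FPKM in HCC827/GR and 151 and 156 FPKM in HCC827 (adjusted p = 0.368), and the next most abundant, CFL1, CALM3 and CALM2, did not pass either (adjusted p = 0.700, 0.655 and 0.704). RHOB had 49.6, 69.2 and 43.3 FPKM in HCC827/GR and 13.0 FPKM in HCC827 replicate 2 and was listed at 0 in HCC827 replicate 3 (unadjusted p = 0.0211, adjusted p = 0.111). ROCK1 and ROCK2, the kinases that inhibit the phosphatase, had log2 fold changes of -0.0018 and 0.01, with adjusted p = 0.996 and 0.957.

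In a list of 19 other proteins of actin bundles and thin filaments, 15 were tested, with 4 called higher and 1 lower. Of all entries tested, 5.26% were called higher and 5.71% lower. The median log2 fold change of the 15 was 0.33. FBLIM1, an adaptor that links filamin to integrins, had 7.02, 8.03 and 7.12 FPKM in HCC827/GR and 3.55 and 3.08 FPKM in HCC827 (log2 fold change 0.96, adjusted p = 0.0124). SMTN, smoothelin, rose from 0.701 and 0.849 FPKM in HCC827 to 2.19, 1.91 and 2.27 FPKM in HCC827/GR (log2 fold change 0.82, adjusted p = 0.0197). Also called higher were ZYX and TLN1, the focal adhesion proteins zyxin and talin, with log2 fold changes of 0.70 and 0.68 (adjusted p = 0.0195 and 0.0207). PXN, paxillin, was called lower (log2 fold change -0.66, adjusted p = 0.0407). With 1 library left out these adjusted p reached at most 0.0662 for FBLIM1, 0.0968 for SMTN, 0.0783 for ZYX, 0.0913 for TLN1 and 0.141 for PXN. The most abundant of the list, FLNA, VCL and ACTN4, did not pass, with log2 fold changes of 0.47, 0.31 and 0.09 (adjusted p = 0.0852, 0.0991 and 0.640). DES, LMOD1, SYNPO2 and TGFB1I1 had at most 0.155 FPKM in any library.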

How the data were processed

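The data were RNA-seq libraries of 3 HCC827/GR and 2 HCC827 cell samples. The authors trimmed reads with Cutadapt, mapped them to the genome (hg18 in the submitters' processing notes, with Bowtie2 and TopHat2), assembled transcripts with StringTie and deposited FPKM values estimated with StringTie and Ballgown. Tool versions are not given in the sources used here. The labels describe small-RNA single-end libraries and the study's methods rRNA-depleted paired-end mRNA libraries, and strand is not stated. 1 further FPKM column matched no sample and was not used. Gene positions and exon overlaps were taken from GENCODE (GRCh38).

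Every entry that averaged 0.5 FPKM or more was tested with limma 3.58.1 (R 4.3.3, trended empirical Bayes) on log2(FPKM + 1), a scale that understates the change of low genes, with Benjamini-Hochberg adjustment over all entries tested and a threshold of 0.05. Single values and shares were compared with exact two-sided permutation tests in Python 3.11.15, in which 3 against 2 libraries cannot go below 0.1. The limma fit was tested on simulated data with independent noise in each library. That test left out the filter, the addition of 1 to FPKM and any effect shared by libraries, so it does not cover them. As alternatives the pseudocount was set to 0.1, the filter was dropped or raised to 1 FPKM, and the fits were repeated with median-ratio and quantile scaling, limma without the trend, a Ballgown-type model, a replicate block, summed entries of a symbol, and with each library left out.

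The genes and lists were chosen with earlier results of these data known. All 10 genes were named. Of each related list, genes called with a fold of FPKM + 1 of at least 2 or at most 0.5 were named. Up to 4 with the highest mean FPKM were added per related list, and up to 4 with the highest mean were named per marker list. Other genes named were chosen after their values were seen. A result for a gene of the myosin phosphorylation list is not reported here.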

Additional observations from a re-analysis of the deposited data

How the results depend on the processing

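The log2 fold changes of MYL9, MYLK, TAGLN, CALD1, CNN1 and TPM1 stayed above 0 and that of CNN2 below 0 under every alternative in which they were tested (CNN1 fell under the filter of 1 FPKM and, without HCC827/GR replicate 1, under that of 0.5 FPKM). The calls were less stable. With 1 library left out, 0 to 1 contractile genes were called higher, 1 to 3 related genes higher and 0 to 1 lower, and over all entries 181 to 450 were called higher and 248 to 434 lower. A Ballgown-type model with a library-size covariate called 0 contractile genes and 0 related genes in either direction, with 6 entries higher and 9 lower in all. With a replicate block 0 were called in every one of these counts. The block gives HCC827/GR replicate 1 a level of its own and leaves little data to estimate the spread. Its log2 fold changes therefore equal those without that library (0.86 for TAGLN and 2.01 for MYL9 in both), so it is not a separate check of them. Replicate numbers 2 and 3 are shared by the groups, and same-numbered libraries deviated together only weakly (r = 0.033 and 0.015 over entries). The differently numbered HCC827/GR replicate 1 and HCC827 replicate 3 had r = 0.017. Deviations of 2 HCC827 libraries from their own mean mirror each other, so these r values are not separate checks and cannot settle pairing. The libraries were not treated as pairs. At an unadjusted p under 0.05, the Ballgown-type model had 5 contractile genes higher and 1 lower of 8 tested (9.09% and 8.10% of all entries), and the block 6 and 0 (10.4% and 11.5%). The 8 include TAGLN and CNN1, which passed the filter only through HCC827/GR, so for these genes a higher level there is no separate support. The TAGLN call was also lost without the filter (adjusted p = 0.0636), and 2 rather than 4 related genes were called lower. CNN1 was called with a pseudocount of 0.1, median-ratio or quantile scaling, no trend or summed entries, and TPM1 with a mean of at least 1 FPKM or quantile scaling. With a pseudocount of 0.1, 4 contractile genes passed a fold of 2, as did 860 entries higher and 1024 lower, and leaving out a library gave 1 to 3 contractile genes. The TPM2 share of the tropomyosins differed by -0.165 points, by 0.0251 points after quantile scaling and by -0.314 to 0.0043 points with 1 library left out. The causes were not tested. Depth is unknown, so values below 1 FPKM, above all CNN1 in HCC827, ACTA2 and ACTG2, carry an unmeasured counting error.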

Other observations

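The deposited annotation assigns some of the contractile genes to 7 KEGG or GO terms that were chosen after values were seen, and the other entries of each term are described here beside 5.26% called higher and 5.71% called lower of all entries tested. For vascular smooth muscle contraction, 49 of 93 other entries were tested, with 7 called higher, 5 lower and a median log2 fold change of 0.03. For muscle contraction, 42 of 86 were tested, with 6 higher, 2 lower and a median of 0.06. The term stress fiber had 7 higher and 4 lower of 35 tested. Actin binding had 30 higher and 23 lower of 214 tested (median 0.04), and regulation of actin cytoskeleton 14 higher and 9 lower of 128. Focal adhesion had 23 higher and 13 lower of 128. Calmodulin binding had 4 higher and 9 lower of 92 tested (median -0.02).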
